A study of Mus musculus with 4 samples.

Results

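The methionine cycle and methyl group metabolism were followed here through 10 genes, Mat1a, Mat2a, Gnmt, Bhmt, Bhmt2, Ahcy, Cbs, Cth, Pemt and Nnmt, out of the 20642 gene symbols of the deposited table. They were chosen by name, with earlier results of these data known, so the counts called among them below do not test the set. For each symbol the transcript with the most promoter-proximal reads was kept. All 10 were found, and 9 of them were active, the exception being Nnmt. A gene counted as active when it had any promoter-proximal read and its gene body density, averaged over the libraries, exceeded 4 normalized reads per kb. Across the table, 12705 genes were active.

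PRO-seq (precision nuclear run-on sequencing) reads the RNA that engaged RNA polymerases extend in isolated nuclei, so its values are nascent transcription and not the amount of mRNA. Livers were taken on postnatal day 14 from C57BL/6 mice. All mice carried the Alb-Cre transgene, in which the albumin promoter drives Cre in the hepatocyte lineage. WT mice were Hdac3 +/+, and KO mice were Hdac3 fl/fl or Hdac3 fl/-. Each of the 4 libraries, 2 per genotype (WT1, WT2, KO1, KO2), came from a run-on of nuclei pooled from several mice, so single mice cannot be seen and the libraries are the replicates. The nuclei came from whole liver, which also holds cells in which the albumin promoter is not active.

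In the methionine cycle, methionine adenosyltransferases join methionine and ATP into S-adenosylmethionine, the methyl donor of most methyltransferases. Once the methyl group is passed on, S-adenosylhomocysteine remains, which is split into adenosine and homocysteine. Homocysteine is either methylated back to methionine, in the liver also with betaine as donor, or led through cystathionine to cysteine. The hepatocyte is the cell in which most of these enzymes reach their highest levels.

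The libraries held from 16628518 reads on genes in KO2 to 26190040 in WT2. Promoter-proximal reads were 9.38% to 10.3% of them in the WT libraries and 13.6% to 17.0% in the KO libraries. Over active genes, the median log2 fold change (KO over WT) was -0.09 in gene bodies and 0.56 at promoter-proximal regions. Hdac3 itself had a gene body log2 fold change of -0.14 (limma, Benjamini-Hochberg adjusted p = 0.413), so the genotypes rest on the labels; where the reads lie relative to the deleted part of the gene was not examined. Marker lists of other liver cells moved with genotype. Summed normalized gene body reads of 6 endothelial markers were 52163 to 56612 in WT and 87011 to 97214 in KO, with 4 of them called higher. Those of 6 stellate cell markers were 9184 to 10317 in WT and 18302 to 19969 in KO, and all 6 were called higher. Those of 5 Kupffer and myeloid markers were 12332 to 12609 in WT and 13604 to 16520 in KO, with 0 called (3 had an unadjusted limma p under 0.05, and edgeR and DESeq2 also called 0). Of 8 hepatocyte markers 4 were called lower, with sums of 238294 to 269647 in WT and 160498 to 165160 in KO, and all 6 periportal hepatocyte markers were called lower, with sums of 208705 to 209967 in WT and 71026 to 77860 in KO. Of 6 pericentral markers 1 was called higher and none lower, with sums of 30916 to 41179 in WT and 27166 to 27627 in KO. The 5 cholangiocyte markers summed to 158 to 208 in WT and 152 to 182 in KO, with 1 called lower, and the 4 erythroid markers to 492 to 575 in WT and 322 to 344 in KO, with 3 called lower and 1 higher. No marker in the table was at 0. The part of these shifts in the results below was not tested, and in whole liver fewer cells of a type and less transcription per cell cannot be told apart.

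Transcription across the gene bodies of the cycle was lower in Hdac3 KO liver. Of the 9 active genes, 7 fell (Mat1a, Bhmt2, Ahcy, Cbs, Gnmt, Bhmt and Pemt) and 0 rose, beside a background of 11.4% of active genes called lower and 10.4% called higher. Genes were called where the limma adjusted p was under 0.05 and the log2 fold change exceeded 0.6 in size. In the same 7 genes both KO libraries lay below both WT libraries, which held for 42.8% of active genes. The median gene body log2 fold change of the 9 genes was -1.06. With all 20642 genes in the fit, inactive ones included, the calls of Mat1a and Ahcy remained and those of the other 5 were lost (limma adjusted p from 0.0574 to 0.0753), with 2.85% of all genes called lower.

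The gene body is counted from 1 kb downstream of the transcription start site (TSS) to the end of the transcript, and values are normalized reads, given for library 1 and then library 2 of each genotype. Mat1a encodes the liver form of methionine adenosyltransferase (chr14:41105035-41124412, plus strand, 10 exons; all spans are from GENCODE M21 on mm10). Its gene body held 39781 and 40282 reads in the WT libraries against 15556 and 14503 in the KO libraries. Both KO libraries were far below both WT libraries, and the spread within each genotype was small. The log2 fold change was -1.41 (SE 0.12, limma adjusted p = 2.01e-09), and the KO mean was 37.5% of the WT mean. Mat2a encodes the methionine adenosyltransferase of most other tissues and of fetal and dividing liver cells (chr6:72432799-72439558, minus strand, 9 exons). Its gene body held 919 and 882 reads in the WT libraries against 893 and 747 in the KO libraries, so that the genotypes overlapped. For Mat2a the log2 fold change was -0.14 (95% interval -0.40 to 0.12, limma adjusted p = 0.412), an interval that leaves out a fall as large as that of any of the 7 called genes.

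The ratio of Mat1a to Mat2a gene body density, in reads per kb, was 13.8 in WT1 and 14.6 in WT2 against 5.56 in KO1 and 6.20 in KO2. At promoter-proximal regions the ratio of reads was 1.88 and 1.74 in WT and 0.713 and 0.602 in KO, so that Mat1a was above Mat2a in the WT libraries and below it in the KO libraries. With 2 libraries per genotype an exact two-sided permutation test of such a ratio cannot give a p under 0.333.

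Of the methyltransferases that use S-adenosylmethionine, Gnmt (chr17:46725664-46729168, minus strand, 6 exons), which methylates glycine, is one of the most active in liver. Its gene body held 1685 and 2105 reads in the WT libraries against 839 and 978 in the KO libraries. The log2 fold change was -1.06 (SE 0.13, limma adjusted p = 5.18e-07). Pemt (chr11:59970614-60046489, minus strand, 7 exons) makes phosphatidylcholine from phosphatidylethanolamine, using S-adenosylmethionine for each methyl group. Its gene body held 6144 and 6997 reads in the WT libraries against 3434 and 3963 in the KO libraries. The fall was the smallest of the 7, with a log2 fold change of -0.83 (SE 0.11, limma adjusted p = 2.59e-06). Nnmt (chr9:48591877-48605153, minus strand, 3 exons), which methylates nicotinamide, was below the activity minimum. Its gene body held 28, 57, 39 and 16 whole reads in WT1, WT2, KO1 and KO2, a WT mean of 3.66 normalized reads per kb. The genotypes overlapped, and with all 20642 genes in the fit its gene body log2 fold change was -0.42 (limma adjusted p = 0.664).

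Ahcy (chr2:155059310-155074497, minus strand, 10 exons), the hydrolase that removes S-adenosylhomocysteine, held 6337 and 5965 reads in the WT libraries against 2541 and 2525 in the KO libraries. Its log2 fold change of -1.28 (SE 0.11) had the smallest adjusted p of the 9 genes in gene bodies (limma, 1.71e-09). Betaine is the methyl donor of Bhmt (chr13:93616675-93637961, minus strand, 8 exons), while Bhmt2 (chr13:93655720-93674302, minus strand, 8 exons) takes S-methylmethionine. The Bhmt gene body held 27769 and 33267 reads in the WT libraries against 15416 and 14832 in the KO libraries. The fall had a log2 fold change of -1.01 (SE 0.12, limma adjusted p = 5.25e-07). For Bhmt2 the reads were 3074 and 3991 in the WT libraries against 1340 and 1286 in the KO libraries. The log2 fold change of -1.42 (SE 0.12, limma adjusted p = 3.24e-09) was on par with that of Mat1a. In each of these 3 genes the WT libraries lay above both KO libraries.

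Of the transsulfuration enzymes, Cbs was called in the gene body and Cth was not, and the difference between them was not tested. Cbs (chr17:31608894-31637238, minus strand, 17 exons), which condenses homocysteine and serine into cystathionine, held 4163 and 5268 reads in the WT libraries against 1933 and 2080 in the KO libraries. It fell with a log2 fold change of -1.22 (SE 0.12, limma adjusted p = 1.89e-08). Cth (chr3:157894248-157925077, minus strand, 12 exons), which cleaves cystathionine to cysteine, held 6823 and 10537 reads in the WT libraries against 7685 and 6190 in the KO libraries. WT1 lay between the KO libraries and WT2 above them. The log2 fold change was -0.30 (95% interval -0.61 to 0.01, limma adjusted p = 0.119). Without WT1 it was -0.61 and called (limma adjusted p = 8.58e-05), and without WT2 it was 0.02, so the WT library kept decides the value. Cth overlaps the annotated same-strand gene Gm43314, and its reads could include those of that gene.

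**Figure D1:**
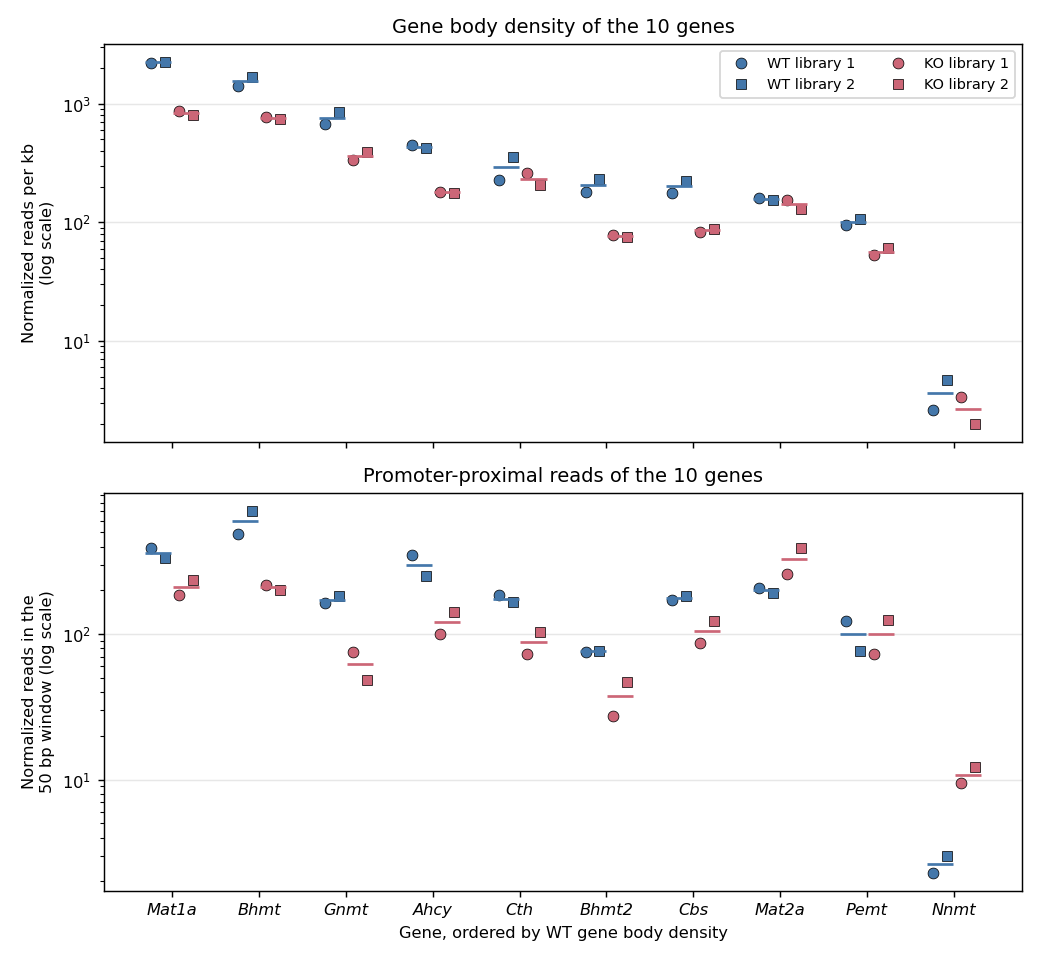
Levels of the 10 genes in each library on log axes, gene body density in normalized reads per kb (top) and normalized reads of the promoter-proximal window (bottom). Points are libraries (blue WT, red KO; circle library 1, square library 2) and short lines are the means of 2 libraries. In gene bodies the KO points lie below the WT points in 7 of the 9 active genes, while those of Mat2a, Cth and the inactive Nnmt overlap; in the lower plot the KO points of Mat2a and Nnmt lie above the WT points.

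By density in WT, which corrects for the length of the gene body, the order was Mat1a (2220.0 normalized reads per kb), Bhmt (1536), Gnmt (757), Ahcy (434), Cth (291), Bhmt2 (205), Cbs (201), Mat2a (156), Pemt (101) and Nnmt (3.66). The WT libraries of Cth and Bhmt2 and those of Bhmt2 and Cbs overlapped, so these neighbours could not be ordered, and all other neighbours were apart in both WT libraries. In KO the order by mean density was Mat1a, Bhmt, Gnmt, Cth, Ahcy, Mat2a, Cbs, Bhmt2, Pemt and Nnmt, and both libraries of each gene lay above both of the next. Cth thus stood above Ahcy and Mat2a above Cbs in both KO libraries and below them in both WT libraries, changes of place that were not tested. The 10 genes together took 0.413% and 0.461% of all gene body reads in the WT libraries and 0.226% and 0.225% in the KO libraries. Mat1a and Bhmt alone gave 69.8% and 67.3% of these reads in WT and 62.3% and 62.2% in KO.

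At promoter-proximal regions, the 50 bp window with most reads within 500 bp of the TSS, most cycle genes were lower in Hdac3 KO liver, while 84.2% of active genes had a log2 fold change above 0. Of the 9 active genes 6 fell (Bhmt, Gnmt, Ahcy, Cth, Bhmt2 and Mat1a) and 0 rose, beside 2.2% of active genes called lower and 25.8% called higher. In 7 of the 9, both KO libraries lay below both WT libraries, beside 6.72% of active genes. The median log2 fold change of the 9 was -1.0, and 8 of them lay below the median of active genes. These calls were less firm than those in gene bodies: leaving out WT1 or WT2 left 1 of them (Bhmt without WT1 and Ahcy without WT2), leaving out KO2 left 2 (Bhmt and Ahcy), and leaving out KO1 gave 3 lower (Bhmt, Gnmt and Ahcy) and 1 higher (Mat2a). With inactive genes in the fit limma called 0 of the 10 genes and 0 of all 20642, while 7 of the 10 and 4606 of all had an unadjusted p under 0.05. Both shares of the background depend on the scaling. With median-of-ratios factors computed on promoter-proximal reads alone, the median of active genes was 0.00 and 40.2% of calls were higher in place of 92.1%. In that fit 7 of the 9 genes were called lower, beside 7.41% of active genes called lower and 4.99% called higher.

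With all 4 libraries the betaine enzyme and the glycine methyltransferase had the largest falls, but differences between genes were not tested. The order turned on leaving out a library. Without WT2 the log2 fold changes were -1.55 for Ahcy, -1.42 for Gnmt and -1.21 for Bhmt. Without KO2 they were -1.56 for Ahcy, -1.42 for Bhmt and -1.19 for Gnmt. Bhmt held 484 and 706 normalized reads in the WT libraries against 219 and 200.4 in the KO libraries in its promoter-proximal window. The log2 fold change was -1.48 (SE 0.30, limma adjusted p = 5.17e-05), or -2.04 relative to the median of active genes. Gnmt held 164, 182, 75.3 and 48.6 reads in WT1, WT2, KO1 and KO2. This was a log2 fold change of -1.50 (SE 0.35, limma adjusted p = 0.000365), or -2.06 relative to that median. In both genes the higher KO library stayed well below the lower WT library. Ahcy held 350 and 250 reads in the WT libraries against 99.7 and 141 in the KO libraries. The fall of Ahcy was -1.31 on the log2 scale (SE 0.32, limma adjusted p = 0.00093).

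Cth, whose gene body was not called, held 185 and 166 reads in the WT libraries against 73.2 and 103 in the KO libraries at its promoter-proximal window. Here the genotypes did not overlap, and the log2 fold change was -1.0 (SE 0.34, limma adjusted p = 0.0179). Bhmt2 held 75.7, 77, 27.6 and 47.1 reads in the same order of libraries, with a log2 fold change of -1.06 (SE 0.38, limma adjusted p = 0.0245). Mat1a held 390, 334, 185 and 237 reads, with a log2 fold change of -0.78 (SE 0.31, limma adjusted p = 0.0437). The calls of Cth, Bhmt2 and Mat1a were each lost on leaving out any 1 of the 4 libraries. They were also lost with a block for the replicate number (limma adjusted p = 0.0591, 0.065 and 0.114). The same held with median-of-ratios factors from gene bodies (limma adjusted p = 0.0573, 0.0603 and 0.115). The call of Bhmt2 was lost with DESeq2 as well (DESeq2 adjusted p = 0.0693).

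The other 3 active genes were not called at promoter-proximal regions. Cbs held 171, 182, 87.0 and 123 reads in WT1, WT2, KO1 and KO2, without overlap, and its log2 fold change was -0.76 (95% interval -1.42 to -0.11, limma adjusted p = 0.0681). Pemt held 124, 76, 73.2 and 126 reads, so that the genotypes overlapped. Its log2 fold change was -0.01 (95% interval -0.70 to 0.67, limma adjusted p = 0.979). Mat2a was the only active gene of the 10 with both KO libraries above both WT libraries there, at 208, 192, 259 and 393 reads, as in 61.9% of active genes. Its log2 fold change was 0.67 (SE 0.31, limma adjusted p = 0.0848), or 0.11 relative to the median of active genes. Nnmt, outside the fit, held 2 and 3 whole reads in WT1 and WT2 and 9 and 8 in KO1 and KO2. With all genes in the fit its promoter-proximal log2 fold change was 1.7 (limma adjusted p = 0.147).

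**Figure D2:**
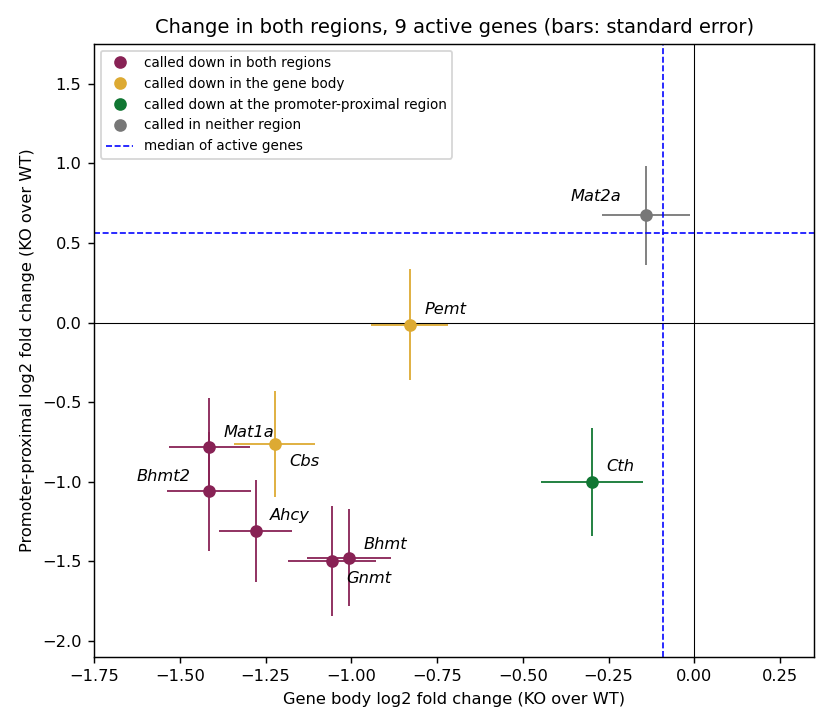
Log2 fold change (KO over WT) in gene bodies (x axis) and at promoter-proximal regions (y axis) of the 9 active genes, with bars for the standard error of the limma fit and dashed lines for the medians of active genes. The 5 genes called lower in both regions (Mat1a, Bhmt2, Ahcy, Gnmt, Bhmt) are at the lower left, Cbs and Pemt were called in gene bodies only, Cth at the promoter-proximal region only, and Mat2a in neither and close to both medians.

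The pausing index, the promoter-proximal density divided by the gene body density, was called for 0 of the 9 genes, beside 12.4% of active genes called higher and 0.519% called lower. No gene had an unadjusted limma p under 0.05, and the smallest was 0.051; no other tool was run on the index. The index of Mat2a was 26.1 and 25.2 in WT1 and WT2 and 33.5 and 60.7 in KO1 and KO2. Its log2 fold change was 0.81 (95% interval 0.00 to 1.63, limma adjusted p = 0.143), beside a median of 0.61 over active genes. For Pemt the index was 26.5 and 14.4 in WT1 and WT2 and 28.2 and 41.8 in KO1 and KO2. The log2 fold change was also 0.81 (limma adjusted p = 0.149). Without KO1 both were called (limma adjusted p = 0.0201 for Mat2a and 0.0477 for Pemt), and the share of active genes called higher was then 41.4%. Of the remaining 7 genes, Bhmt had both KO libraries (5.66 and 5.40) below both WT libraries (6.94 and 8.44), beside 3.49% of active genes. With Mat2a, Pemt, Mat1a and Cbs, 4 of the 9 genes had both KO libraries above both WT libraries, beside 62.8% of active genes.

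Bhmt and Bhmt2 lie on the minus strand of chromosome 13, with 17758 bases between their GENCODE spans. Dmgdh, the mitochondrial dimethylglycine dehydrogenase that takes up the product of betaine demethylation, starts on the plus strand, with 133 bases between its RefSeq start and that of Bhmt2. Reads were counted along the coding strand, so the directions of transcription of Bhmt2 and Dmgdh are told apart. The region searched for the promoter-proximal window of each gene reaches past the start of the other. From which of these promoters the promoter-proximal reads came was not tested. The Dmgdh gene body held 4971 and 5687 normalized reads in the WT libraries against 2130.1 and 1986 in the KO libraries. Its log2 fold change was -1.37 (SE 0.11, limma adjusted p = 1.15e-09), close to that of Bhmt2, and all 3 genes of the cluster were called lower in gene bodies. At promoter-proximal regions Bhmt and Bhmt2 were called on the deposited scale. Dmgdh was not, with a log2 fold change of -0.56 (limma adjusted p = 0.171). Its reads there were 168 and 210 in the WT libraries against 130 and 123 in the KO libraries, without overlap. With median-of-ratios factors for promoter-proximal reads Dmgdh was called lower too (-1.13, limma adjusted p = 0.00281). A difference between the genes was not tested. The density of Bhmt was 7.82 and 7.22 times that of Bhmt2 in the WT libraries and 9.96 and 9.99 times in the KO libraries.

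**Figure D3:**
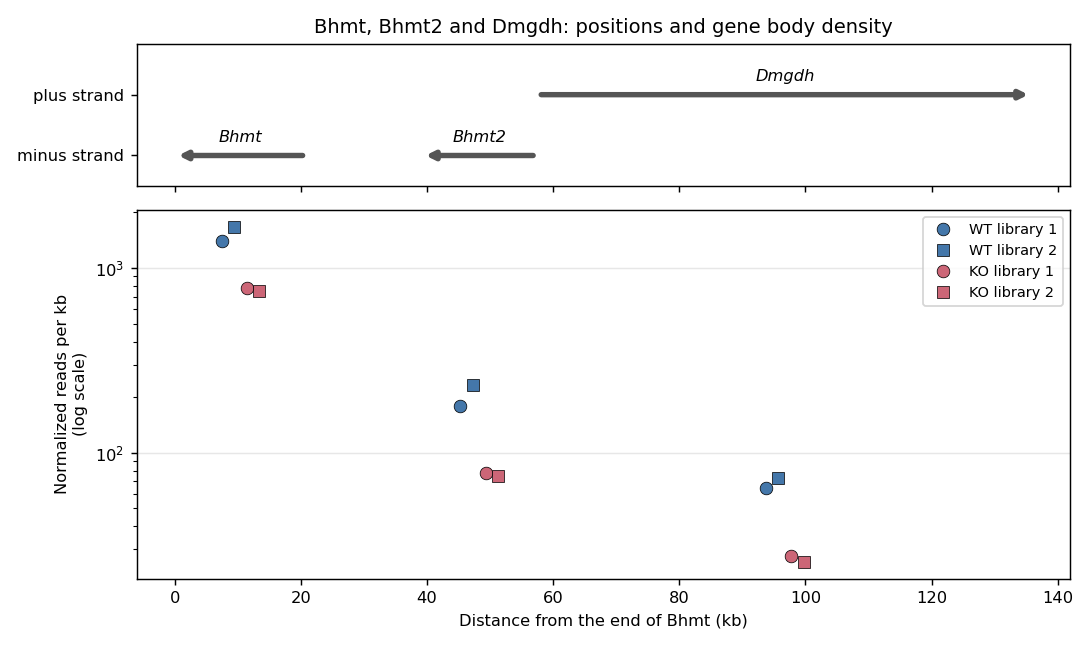
Positions and direction of transcription of Bhmt, Bhmt2 and Dmgdh (top, in kb from the end of the Bhmt annotation) and their gene body densities in normalized reads per kb on a log axis (bottom), with circles for library 1 and squares for library 2 of WT (blue) and KO (red). Libraries are spread along the x axis around the middle of each gene, and in all 3 genes both KO points lie below both WT points.

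The sequences before the start of 4 genes are shown to let the promoters of falling genes (Bhmt2, Gnmt and Ahcy) be read beside that of Mat2a, which was not called. They are from RefSeq (GRCm38.p6, the same coordinates as mm10), minus strand, 5′ to 3′, and stop before any annotated transcript of these genes and of Dmgdh. Bhmt2 is at chr13:93674303-93674432 (the 130 bases between Bhmt2 and the GENCODE start of Dmgdh, which lies nearer than the RefSeq start), Gnmt at chr17:46729212-46729415, Ahcy at chr2:155074498-155074747 and Mat2a at chr6:72439559-72439806. Capitals mark matches, on either strand, to any of 7 motifs. These are the core promoter motif TATAAA, the CCAAT box, the GC-rich motif spelled GGGCGG, the nuclear receptor half-site spelled AGGTCA, the forkhead motif spelled TGTTTAC, the E-box spelled CACGTG and a motif of the C/EBP kind spelled TTGCNNAA.

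Bhmt2: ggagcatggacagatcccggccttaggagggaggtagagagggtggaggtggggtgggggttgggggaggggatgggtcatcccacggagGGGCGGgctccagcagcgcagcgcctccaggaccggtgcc
Gnmt: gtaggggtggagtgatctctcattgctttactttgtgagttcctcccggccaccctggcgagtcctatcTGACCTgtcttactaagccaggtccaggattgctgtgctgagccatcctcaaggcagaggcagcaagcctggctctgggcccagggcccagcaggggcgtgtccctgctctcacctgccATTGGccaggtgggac
Ahcy: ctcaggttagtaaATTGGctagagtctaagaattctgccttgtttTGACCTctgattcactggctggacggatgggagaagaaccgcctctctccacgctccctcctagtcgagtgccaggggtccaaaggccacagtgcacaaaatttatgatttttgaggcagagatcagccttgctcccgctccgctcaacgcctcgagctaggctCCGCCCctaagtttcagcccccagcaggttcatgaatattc
Mat2a: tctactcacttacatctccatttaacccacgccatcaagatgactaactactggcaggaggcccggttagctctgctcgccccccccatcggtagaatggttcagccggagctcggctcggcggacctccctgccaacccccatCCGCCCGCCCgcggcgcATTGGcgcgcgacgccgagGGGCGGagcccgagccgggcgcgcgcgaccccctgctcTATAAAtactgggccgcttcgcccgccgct

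The Mat2a window held the core promoter motif, a CCAAT box and 3 GC-rich motifs, 2 of which overlap, and 29 CpG dinucleotides. The Ahcy window held 1 CCAAT box, 1 GC-rich motif and 1 nuclear receptor half-site, the Gnmt window 1 CCAAT box and 1 half-site, and the Bhmt2 window 1 GC-rich motif. Over the same stretch of all promoters, a GC-rich motif was present in 27.3% for the 130 bases of Bhmt2, and a CCAAT box in 29.1% and a half-site in 11.6% for the 204 bases of Gnmt. In the 250 bases before the start, the core promoter motif was present in 12.4% of the 32851 mouse promoters of the table, the CCAAT box in 33.8%, the GC-rich motif in 32.7% and the half-site in 14.0%. No forkhead, E-box or C/EBP match was found in the 4 windows, and these were present in 3.17%, 6.02% and 9.56% of promoters. Bhmt, whose sequence is not shown because annotated transcripts cover most of the window, had 3 matches to the half-site in its 250 bases. A match is a run of letters and not a binding site. The table held 7 of the 10 genes, without Mat1a, Cth and Nnmt. CpG counts in the 250 bases ranged from 1 and 2 at the 2 starts of Pemt through 5 for Bhmt, 6 for Gnmt and 9 for Ahcy to 20 for Bhmt2, 21 for Cbs and 29 for Mat2a, beside a median of 6 over all promoters, and 93.2% of promoters had fewer than Mat2a.

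The neighbouring pathways were followed in 7 lists of 65 genes in all, of which 64 were in the table and 62 were active. In gene bodies 24 of the 62 (38.7%) were called lower and 3 (4.84%) higher, beside 11.4% and 10.4% of active genes, with a median log2 fold change of -0.38, against -0.09 over active genes. These lists were drawn up with earlier results of these data in view. At promoter-proximal regions 3 (4.84%) were called lower and 9 (14.5%) higher, beside 2.2% and 25.8% of active genes, so the share called higher was below that of active genes. With median-of-ratios factors for promoter-proximal reads alone 14 were lower and 1 (Gatm) higher, beside 7.41% and 4.99% of active genes, so the direction of this count depends on the scaling. The 14 then included Gldc, Cdo1, Qprt, Chdh, Sardh and Dmgdh. Leaving out a library also moved it, to 3 genes without WT1, 2 without WT2 and 3 without KO2.

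In the rest of the methionine cycle, 1 of 6 genes fell in gene bodies. Adk, the adenosine kinase that removes the other product of Ahcy, had a log2 fold change of -1.15 there. Mtr and Mtrr, the folate-dependent methionine synthase and its reductase, had gene body log2 fold changes of -0.01 (limma adjusted p = 0.934) and -0.29 (limma adjusted p = 0.10). Mat2b, the regulatory partner of Mat2a, had -0.10 (limma adjusted p = 0.559). At promoter-proximal regions Mat2b, Mtr and Ahcyl1 were called higher, with log2 fold changes of 1.12, 0.86 and 0.80, which are 0.56, 0.30 and 0.24 above the median of active genes, and none of these calls held with median-of-ratios factors for promoter-proximal reads (limma adjusted p = 0.118, 0.404 and 0.555).

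Of 8 active choline and betaine genes, 3 fell in gene bodies. Sardh and Dmgdh, which oxidize sarcosine and dimethylglycine in mitochondria, had log2 fold changes of -1.54 and -1.37. Chdh, which makes betaine aldehyde from choline, had -0.68. The choline kinase Chka and Pcyt1a, both of the other route to phosphatidylcholine, had gene body log2 fold changes of 0.19 and -0.02 and were not called. At the promoter-proximal regions of Pcyt1a and Cept1 the log2 fold changes were 0.91 and 0.80 and called on the deposited scale, and neither was called with median-of-ratios factors.

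Folate and one-carbon genes held the highest count, with 9 of 14 active genes lower and none higher in gene bodies. They included all 3 glycine cleavage genes of the list, Gldc (-1.46), Gcsh (-0.82) and Amt (-0.70). The cytosolic folate enzymes Aldh1l1 (-1.25), Mthfd1 (-0.86), Ftcd (-0.86) and Shmt1 (-0.82) and the polyglutamate synthase Fpgs (-0.89) fell as well. Gldc was the 1 gene of the list that fell at the promoter-proximal region, with a log2 fold change of -1.14 (limma adjusted p = 0.00509).

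Downstream of Cth, 3 of 10 genes of cysteine, glutathione and sulfide metabolism fell in gene bodies. The largest fall was that of Cdo1, the cysteine dioxygenase that leads cysteine to taurine and sulfate, at -1.59. Suox, the sulfite oxidase, had -0.81 and Mpst -0.60. Cdo1 was also called lower at its promoter-proximal region, with -1.04 (limma adjusted p = 0.00453). The glutathione synthesis genes Gclc (0.28), Gclm (-0.22) and Gss (-0.54) were not called.

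Other methyltransferase genes went both ways, with 2 of 9 active genes higher and 3 lower in gene bodies. Gatm, which makes the guanidinoacetate that Gamt methylates to creatine, rose with a log2 fold change of 1.15 in the gene body and 1.62 at the promoter-proximal region, while Gamt fell with -0.61. Inmt rose with 0.74, with gene body reads of 704 and 324 in the WT libraries against 744 and 856 in the KO libraries. WT1 thus lay close to KO1, and the size of the rise rests largely on WT2. Tpmt and As3mt, which methylate thiopurines and arsenic, fell with -1.29 and -0.66. Of the DNA methyltransferase genes, Dnmt1, Dnmt3a and Dnmt3b had log2 fold changes of 0.31, 0.24 and -0.27 and were not called.

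Of the 6 polyamine genes limma called 0 in gene bodies, as did edgeR and DESeq2, and 2 (Amd1 and Sms) had an unadjusted p under 0.05. Amd1, which decarboxylates S-adenosylmethionine for polyamine synthesis, had a log2 fold change of -0.48 in the gene body. At its promoter-proximal region the log2 fold change was 1.65 (limma adjusted p = 0.00312). This rests on few normalized reads, 4.59, 12, 24.4 and 27.3 in WT1, WT2, KO1 and KO2. The promoter-proximal call of Amd1 was lost with median-of-ratios factors (limma adjusted p = 0.0966). So was that of the spermine synthase Sms, with a log2 fold change of 0.94 on the deposited scale. In the NAD and nicotinamide list, which surrounds Nnmt, 5 of 9 genes fell and 1 rose in gene bodies. Qprt (-1.14), of synthesis from tryptophan, and Nampt (-0.79), of salvage, fell, as did Nadsyn1 (-0.94), Nmnat3 and Nmnat1. Aox1, an oxidase of N-methylnicotinamide, rose with 0.90. At promoter-proximal regions Qprt was called lower (-1.05) and Aox1 higher (1.12), the latter not with median-of-ratios factors.

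**Figure D4:**
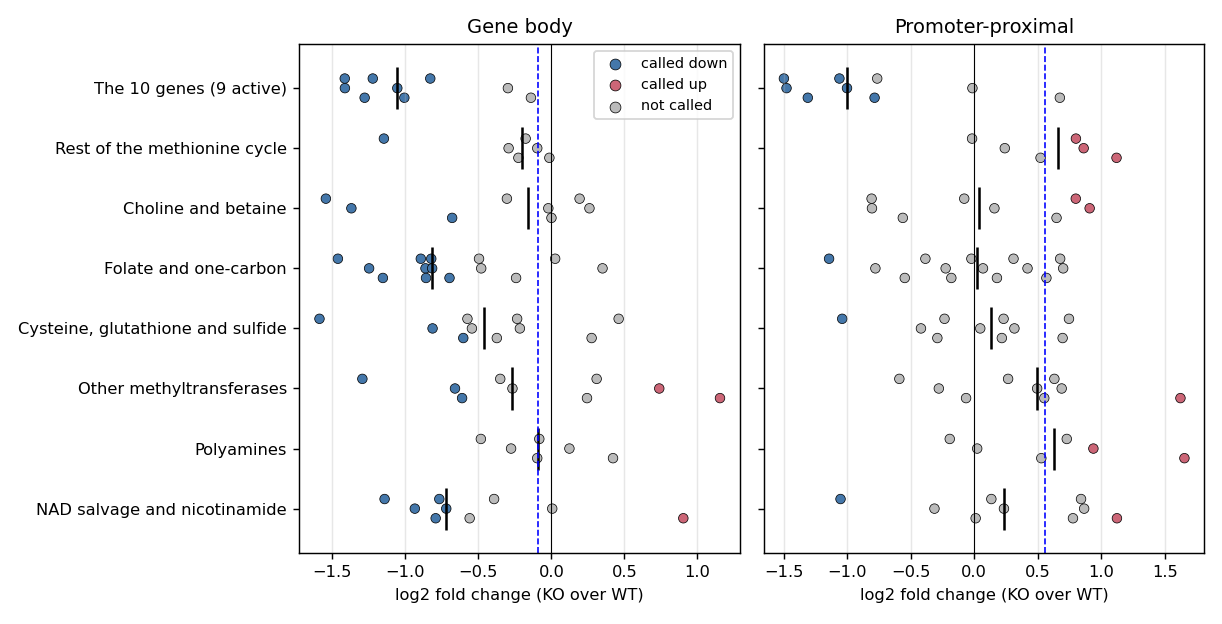
Log2 fold change (KO over WT) of the 9 active genes of the cycle and of the 62 active genes of 7 neighbouring lists, in gene bodies (left) and at promoter-proximal regions (right). Each point is a gene (blue called lower, red called higher, grey not called), vertical bars are list medians and the dashed line is the median of active genes. In gene bodies the medians of the cycle (-1.06) and of the folate list (-0.82) lie lowest. At promoter-proximal regions the cycle is the group with a median below 0 on the deposited scale, which is the scale plotted. With median-of-ratios factors for those reads alone, 14 of the 62 neighbouring genes were called lower and 1 higher.

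The genes with the most similar gene body profile to Bhmt2 were Tat, Slc4a1 and Sybu, with distances of 0.04, 0.07 and 0.10 (log2 scale, over 4 libraries and 12634 genes compared). Bhmt2 was taken for its gene body log2 fold change, which was the lowest of the cycle at -1.42, but Mat1a was close at -1.41 and was the lower of the pair with a pseudocount of 10, without WT2 and without KO1. Tat, the tyrosine aminotransferase of hepatocytes, held 21219 and 26524 reads in the WT libraries against 8955 and 8771 in the KO libraries. Slc4a1, the anion exchanger of red blood cells, held 372, 477, 168 and 150.3 reads in the same order, so its log2 fold change of -1.40 rests on far fewer reads. Sybu held 2569 and 3249 normalized gene body reads in the WT libraries against 1184 and 1139 in the KO libraries.

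Of the 2282 intergenic enhancers that were called on reads pooled over the 4 libraries, and are used here for their positions alone, 1 had a gene of the cycle as its closest gene or within 50 kb. This was the enhancer at chr11:60044769-60047399 (mm10), assigned to Pemt at a distance of 7930 bp. It overlaps the RefSeq span of Pemt by 1793 bp. The outermost annotated start of Pemt, at 60046489 in GENCODE on the minus strand, lies within it. The gene body counted for Pemt is 65223 bp of a RefSeq span of 75948 bp, so the counted transcript starts further inside. Whether this region is an enhancer or a start of Pemt was not tested. Among active genes, 10.9% were a closest gene and 9.83% were within 50 kb of an enhancer. Interactions listed in 4DGenome linked 15 enhancers to 7 of the 10 genes, 7 of these enhancers lying on another chromosome than their gene, and 6 of the 9 active genes had such a link, beside 75.8% of active genes.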

How the data were processed

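Per the labels and the study's methods, PRO-seq reads were trimmed with cutadapt, aligned to mm10 with Bowtie2 and counted by the authors with NRSA over RefSeq transcripts along the coding strand. The deposited read values of WT2 are plain read counts. Those of WT1, KO1 and KO2 are signal that the authors scaled by a factor (1.15, 1.06 and 1.52). Once the factor was divided out, 100% of the 41640 read values per library were whole to within 0.001. Densities are signal per bp and were not part of this check.

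KO and WT were compared on log2(normalized reads + 1) with limma 3.58.1 in R 4.3.3 (intensity trend in eBayes, without a block) over 12705 active genes with Benjamini-Hochberg adjustment. The pausing index was ((promoter-proximal + 1) / 50 bp) / ((gene body + 1) / gene body length). Alternatives used edgeR 4.0.16, DESeq2 1.42.0, pseudocounts of 0.1 and 10, other filters, scalings and transcripts, a block for the replicate number, and fits that left out 1 library. The procedure was also run on counts simulated with dispersions estimated from these libraries. The simulation held no shift over all genes, so it cannot check the promoter-proximal calls under such a shift. Tables and plots used Python 3.11.15, pandas 2.3.3 and matplotlib 3.10.9.

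By rule the text names all 10 genes, every called gene of the lists, with values for up to 3 per list, region and direction, and the 3 other active genes whose centred gene body profile was nearest to that of the gene with the largest change. Further list genes, called or not, are given with values chosen after these were seen. Some genes of the lists are counted but not reported here by name. The members and lists were chosen with earlier results of these data known. The deposited enhancer list holds positions and linked genes as the authors called them on pooled reads. GENCODE M21 gave exons and overlapping genes. Depth was 16628518 to 26190040 reads on genes, and the active genes of the cycle held 26 to 706 whole reads per library at promoter-proximal windows and at least 492 in gene bodies, so promoter-proximal values are less precise.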

Additional observations from a re-analysis of the deposited data

How the results depend on the processing

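In gene bodies the count of 7 called genes of the cycle held under other pseudocounts, a density minimum of 10, other scalings and transcripts, edgeR, DESeq2 and no fold threshold; it was 2 without the filter on activity and 7 to 8 on leaving out 1 library. At promoter-proximal regions the count of 6 was 0 without the filter, 3 with median-of-ratios factors from gene bodies, 3 with the replicate block and 1 to 4 on leaving out 1 library. For the pausing index 0 to 2 genes were called on leaving out 1 library and 0 otherwise. Of the 62 pathway genes, 27 were called in gene bodies (11 without the filter, 24 to 27 on leaving out 1 library) and 12 at promoter-proximal regions (0 without the filter, where 12 had an unadjusted p under 0.05, 7 with the replicate block, 2 to 12 on leaving out 1 library). In gene bodies 22 of the 62 were called with median-of-ratios factors and 23 with TMM factors. Mpst (-0.604) and Gamt (-0.612) lay just past the fold threshold there in the limma fit used above. At promoter-proximal regions 2.2% of active genes were called lower and 25.8% higher in that fit. These shares were 1.51% and 23.8% with gene body factors, and 1.39% and 13.9% with the replicate block. Without the filter 0 of all 20642 genes were called there. The causes were not tested.

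The labels give both genotypes replicate numbers 1 and 2 but no shared animal, batch or day. The deviations of same-numbered libraries correlated at 0.02 in gene bodies and -0.11 at promoter-proximal regions, so the numbers were not taken as pairs, and the block changed no gene body count. Chosen after seeing the data, the crossed pairing of numbers called 7 genes of the cycle in gene bodies, 8 at promoter-proximal regions and 21 of the pathway genes there.

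Directions turned in a few cases, and no turned value was called. The gene body log2 fold change of Cth ranged from -0.6113 to 0.0156 on leaving out 1 library. At promoter-proximal regions that of Pemt was 0.066 with gene body factors and ranged from -0.4025 to 0.3731 on leaving out 1 library (0.3343 without WT1). For the pausing index, log2 fold changes with median-of-ratios and TMM factors per region were -0.021 and -0.0195 for Mat1a, -0.2879 and -0.2864 for Bhmt2 and -0.1892 and -0.1877 for Cbs. On leaving out 1 library that of Bhmt2 ranged from -0.0508 to 0.7582 and that of Ahcy from -0.2845 to 0.222 (0.1669 without WT1), and that of Ahcy was 0.0281 with a pseudocount of 10. Where a library is left out, the lone library of its genotype is assumed to vary like the others. Promoter-proximal values rest on fewer reads than gene body values.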
